A study of Mus musculus with 4 samples.

Results

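Interferon-stimulated genes were followed in MMTV-Myc cells, mouse mammary tumour cells in which a Myc transgene is driven by the mouse mammary tumour virus promoter. The group was a named list of 44 genes: Stat and Irf transcription factors, sensors of foreign nucleic acid, antiviral effectors, ISG15 and ubiquitin genes, interferon-inducible GTPases and the chemokine gene Cxcl10. A member was any row of the 2 deposited tables whose symbol column held the gene. All 44 had exactly 1 row in each table, out of 22440 rows in the mammosphere and bulk table and 11708 rows in the Cbx8 knockdown table. Measured values did not enter the rule, but the list was drawn up with earlier results of these data known.

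Polyadenylated RNA from 4 cultures was sequenced, with 1 library per group and no replicates. Mammosphere cells (day 20) grew as floating spheres on plates that cells cannot attach to, in medium with EGF and bFGF, and were compared with bulk cells (day 0) grown in medium with serum and insulin. Both are labelled wild type, and all 4 cultures carry the Myc transgene. The Cbx8 knockdown cells carried the hairpin sh68 and the control cells a hairpin against luciferase, called scrambled in another label; both were made by lentiviral infection and selected in puromycin. Only 1 Cbx8 hairpin was sequenced, and the labels do not say in which of these media the shRNA cultures were kept. With 1 library per group, every difference below is between 2 libraries, and no test across replicates exists.

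Interferons are secreted proteins that cells release when pattern receptors detect viral or misplaced nucleic acid. Type I interferon receptors activate Jak kinases, which drive a complex of Stat proteins and Irf9 onto interferon-stimulated response elements (ISRE). Interferon gamma, made mainly by T and NK cells, acts through Stat binding to gamma-activated sites (GAS), and Irf1 is among its early targets. The induced proteins block viral entry, translation and replication, attract leukocytes and damp the signal again, and many tumour cells express a part of this set without infection.

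Levels are in FPKM (mapped fragments per kilobase of transcript, scaled to library size), so they can be set side by side between genes. Fold changes are log2 ratios with 1 FPKM added to each value, which understates the change of low genes. A gene was counted as measured at 1 FPKM or more in either library, and was called when its fold change reached 2-fold in either direction. Mammospheres had 10495 rows at 1 FPKM or more and bulk cells had 11306, while knockdown cells had 10551 and control cells 10553. The knockdown table lists no row at 0, so a gene without a row there may have been silent. Cbx8, the targeted gene, was at 1.23 FPKM in the knockdown library and 4.74 FPKM in the control library. Of 10 epithelial markers, 8 were measured and 6 of these were 2-fold lower in mammospheres, against 17.2% of all measured rows. The median of the 8 was −2.20, and the 10 summed to 73.6 FPKM in mammospheres and 953 FPKM in bulk cells. Krt8 was at 5.14 and 334 FPKM and Krt14 at 0.0534 and 18.8 FPKM in mammospheres and bulk cells. In the same order, Cldn4 was at 0.213 and 15.1 FPKM and Krt18 at 58.2 and 570.4 FPKM. Krt19 was the only measured marker that was not lower, at 9.65 FPKM in mammospheres and 9.08 FPKM in bulk cells (0.08). The defining epithelial genes Epcam (0.0908 and 1.06 FPKM) and Cdh1 (0.0135 and 1.04 FPKM) were near 0 in mammospheres and near 1 FPKM in bulk cells.

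Mammospheres held less RNA of a subset of the interferon-stimulated genes than bulk cells, and more of none by 2-fold. Of the 44 members, 12 were 2-fold or more lower in mammospheres, against 17.2% of all 11630 measured rows, and 0 were 2-fold or more higher, against 3.55% of all rows. The 12 make up 27.3% of the members. The member median was −0.59 on the log2 scale, whereas the median over all measured rows was −0.24. A positive log2 fold change was found for 12 members (27.3%), against 34.8% of all rows, and a negative one for 32 (72.7%), against 65.2%. With libraries scaled to equal upper quartiles, 16 members and 51.6% of all rows were positive; the 4 members whose sign turned were Stat2, Xaf1, Dhx58 and Cmpk2. At 1.5-fold, 22 members were lower, against 30.7% of all rows, and 2 (Usp18 and Adar) were higher, against 9.86%. The authors tested 18 of the 44 members, and their deposited table gave q under 0.05 for 5 of the 18, all lower in mammospheres. Of the 4045 rows tested there, 10.2% were lower and 1.73% higher at that q, and 0 members were higher. The unadjusted p in the authors' deposited table was under 0.05 for 6 of the 18, all lower, against 16.1% of those rows. At that p 3.63% of the rows were higher. The values ran from −3.76 to 0.61. The largest differences were in Cxcl10, Gbp2, Irf1 and Zbp1, and the other 8 were Mx1, Gbp3, Ifit3, Igtp, Ifit1, Samhd1, Ifit2 and Isg20.

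**Figure D1:**
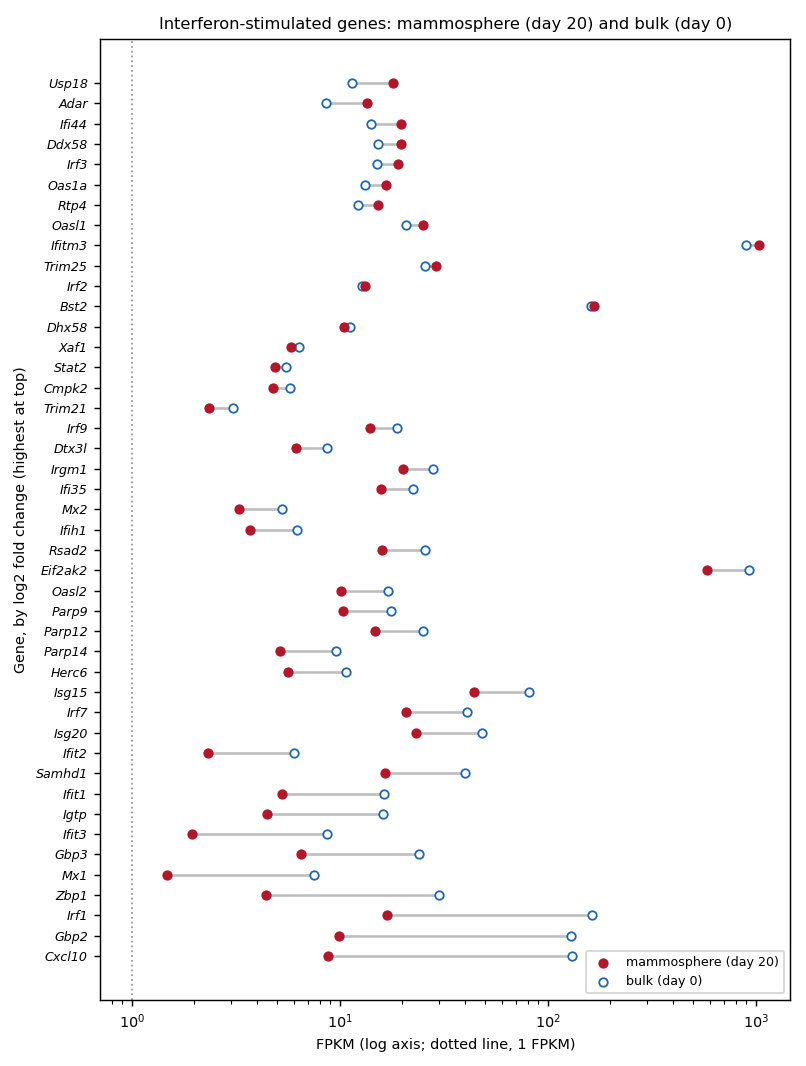
FPKM (log axis) of the 44 interferon-stimulated genes in the mammosphere library (filled red) and the bulk library (open blue), ordered by log2 fold change with the highest at the top. The 4 genes at the bottom lie between 4.41 and 16.9 FPKM in mammospheres and between 30.1 and 164 FPKM in bulk cells.

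Cxcl10, a chemokine that draws activated T cells and NK cells, was at 8.79 FPKM in mammospheres and 131 FPKM in bulk cells (log2 fold change −3.76; mm9 chr5:92760866-92843653, a locus it shares with the row of Cxcl11). Gbp2, a guanylate-binding GTPase that attacks vacuoles holding pathogens, was at 9.92 FPKM in mammospheres and 129 FPKM in bulk cells (−3.57; chr3:142283626-142300972). Irf1, the transcription factor that carries much of the response to interferon gamma, was at 16.9 FPKM in mammospheres and 164 FPKM in bulk cells (−3.20; chr11:53583515-53591876). These 3 were over 100 FPKM in bulk cells, where only 6 members were, and each was lower by more than 3 log2 units in mammospheres. In the authors' deposited table their q-values were 8.84e-08, 1.1e-08 and 1.79e-07. Zbp1, a sensor of Z-form nucleic acid that can start necroptosis, was at 4.41 FPKM in mammospheres and 30.1 FPKM in bulk cells (−2.52; chr2:173032113-173044423; q = 1.74e-05 in the authors' deposited table).

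The promoters of the most changed members are shown because they hold the core letters of the motifs described above. Each line gives 120 of the 250 bases before the annotated start, 5′ to 3′ on the gene's strand, from RefSeq (GRCm38.p6, not the mm9 build of the tables). Capitals mark the ISRE core GAAANNGAAA and the GAS core TTCNNNGAA, each searched on both strands; a core on the other strand appears as its reverse complement.
Cxcl10 (chr5:92349020-92349139, minus strand): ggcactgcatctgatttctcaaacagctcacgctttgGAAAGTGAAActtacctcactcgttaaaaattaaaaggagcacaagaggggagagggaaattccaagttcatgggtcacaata
Gbp2 (chr3:142620543-142620662, plus strand): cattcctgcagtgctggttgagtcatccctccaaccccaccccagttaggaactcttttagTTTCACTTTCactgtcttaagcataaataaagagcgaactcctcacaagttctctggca
Irf1 (chr11:53769868-53769987, plus strand): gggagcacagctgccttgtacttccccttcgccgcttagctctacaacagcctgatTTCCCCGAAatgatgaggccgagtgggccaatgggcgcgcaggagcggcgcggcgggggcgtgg
Gbp3 (chr3:142559924-142560043, plus strand): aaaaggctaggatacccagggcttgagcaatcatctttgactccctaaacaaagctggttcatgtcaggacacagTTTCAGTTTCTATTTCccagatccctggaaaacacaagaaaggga
Ifit3 (chr19:34583335-34583454, plus strand): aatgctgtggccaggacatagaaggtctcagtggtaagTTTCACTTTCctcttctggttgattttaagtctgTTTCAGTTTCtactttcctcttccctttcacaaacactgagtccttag
Igtp (chr11:58199436-58199555, plus strand): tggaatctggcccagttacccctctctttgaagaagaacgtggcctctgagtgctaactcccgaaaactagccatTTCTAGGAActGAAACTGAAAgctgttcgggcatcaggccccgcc
Ifit1 (chr19:34640739-34640858, plus strand): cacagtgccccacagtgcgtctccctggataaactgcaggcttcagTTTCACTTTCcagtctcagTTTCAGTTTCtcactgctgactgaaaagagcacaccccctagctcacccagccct
Samhd1 (chr2:157135227-157135346, minus strand): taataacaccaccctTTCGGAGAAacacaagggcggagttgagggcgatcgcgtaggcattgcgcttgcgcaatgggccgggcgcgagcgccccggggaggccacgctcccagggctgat
For contrast, 2 members that were not 2-fold different were added after their values were seen.
Isg15 (chr4:156200826-156200945, minus strand): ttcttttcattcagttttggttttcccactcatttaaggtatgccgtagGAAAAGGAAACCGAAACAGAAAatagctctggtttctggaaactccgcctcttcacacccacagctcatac
Bst2 (chr8:71537538-71537657, minus strand): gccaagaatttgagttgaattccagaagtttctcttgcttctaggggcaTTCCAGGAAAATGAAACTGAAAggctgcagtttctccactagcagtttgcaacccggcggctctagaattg
In Igtp a GAS core stood 2 bases before an ISRE core. In Isg15 3 ISRE cores formed an overlapping row, and in Bst2 a GAS core overlapped the first of 2 overlapping ISRE cores.

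Of the 44 members, 36 had at least 1 start in the promoter table. Dhx58, Mx1, Mx2, Parp14, Parp9, Rtp4, Usp18 and Zbp1 had none. The 36 members had 44 starts, of which 13 (29.5%) held an ISRE core in the 250 bases before the start, against 2.98% of all 32851 promoters in the table. A GAS core was found at 9 member starts (20.5%), against 7.02% of all promoters. Both cores were found in 4 members and neither in 18. The 13 members with an ISRE core had a median log2 fold change in mammospheres of −0.86, with 6 of them 2-fold lower, and the 23 without had a median of −0.44, with 4 lower. The 9 members with a GAS core had a median of −1.02 and 5 were 2-fold lower, and the 27 without had a median of −0.46 and 5 were lower. Over all measured rows 17.2% were lower and the median was −0.24. Both classes spanned wide ranges. Oas1a and Bst2 held both cores and had log2 fold changes of 0.31 and 0.03. A match of letters is not a measured binding site, and only the window before the start was searched.

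**Figure D2:**
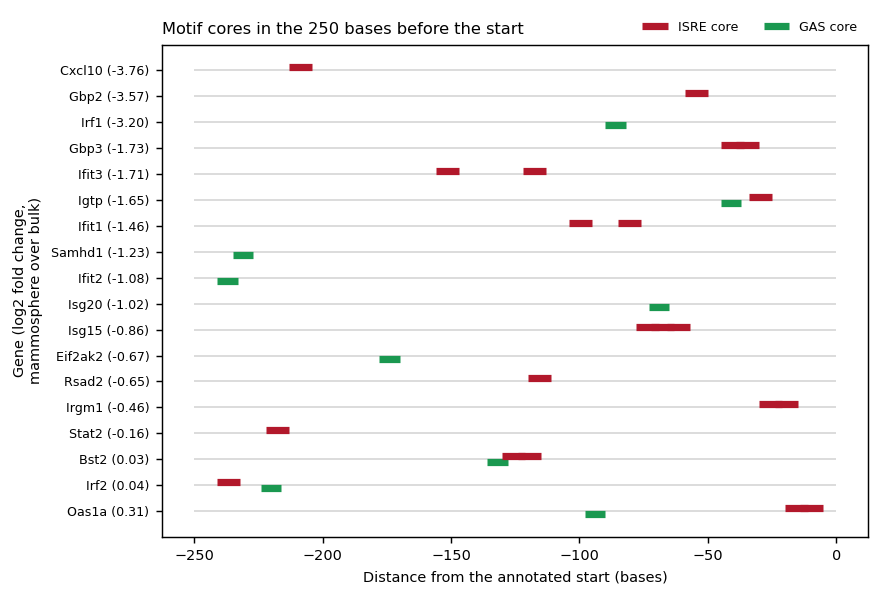
Places of the ISRE core (red) and the GAS core (green) in the 250 bases before the annotated start of the 18 members that held either. Genes run by log2 fold change (mammosphere over bulk, in brackets), lowest at the top. At the top of the list Cxcl10 (−3.76) holds an ISRE core and Irf1 (−3.20) a GAS core. At its foot Oas1a (0.31) holds both.

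Among the signalling factors, Irf1 was the exception. Irf7, which amplifies type I interferon production, was at 20.8 FPKM in mammospheres and 40.7 FPKM in bulk cells (−0.94), just short of 2-fold. Isg20 (−1.02) was the member just inside the limit. Irf9, the DNA-binding partner of the Stat proteins, was at 14.0 and 18.9 FPKM, and Stat2 at 4.87 and 5.53 FPKM, in mammospheres and bulk cells. Irf2, which opposes Irf1 at shared sites, was at 13.2 FPKM in mammospheres and 12.8 FPKM in bulk cells, and Irf3, the factor activated directly by nucleic acid sensing, at 19.1 and 15.1 FPKM. The median of the 6 factors was −0.28.

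The 6 sensors and RNA-editing genes had a median of −0.36. Apart from Zbp1 they differed by less than 2-fold and in both directions. Ddx58, which encodes the RNA sensor RIG-I, was at 19.8 FPKM in mammospheres and 15.3 FPKM in bulk cells (0.35). Ifih1, which encodes the long double-stranded RNA sensor MDA5, was at 3.69 and 6.25 FPKM in the same order of libraries (−0.63), and Dhx58, the regulator LGP2, at 10.4 and 11.2 FPKM (−0.10). Adar, the enzyme that edits adenosine in double-stranded RNA, was at 13.5 FPKM in mammospheres and 8.54 FPKM in bulk cells (0.60). Eif2ak2, which encodes the kinase PKR, was listed at 581 FPKM in mammospheres and 923 FPKM in bulk cells (−0.67). That row also holds the predicted gene Gm6548, so its level is uncertain.

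Of the 18 antiviral effectors, 6 were 2-fold lower in mammospheres (33.3%, against 17.2% of all rows) and 0 higher (against 3.55%), with a median of −0.53 against −0.24 over all rows. The 3 Ifit genes, whose proteins bind foreign RNA ends and block its translation, were all among the 6. Ifit1 was at 5.29 FPKM in mammospheres and 16.3 FPKM in bulk cells (−1.46), Ifit2 at 2.31 and 6.02 FPKM (−1.08) and Ifit3 at 1.96 and 8.67 FPKM (−1.71). Mx1, a dynamin-like GTPase that restricts influenza virus, was at 1.48 FPKM in mammospheres and 7.56 FPKM in bulk cells (−1.79). Samhd1, a dNTP hydrolase that limits retroviruses, was at 16.4 and 40.0 FPKM (−1.23; q = 0.0252 in the authors' deposited table), and Isg20, an exonuclease, at 23.3 and 48.3 FPKM (q = 0.0818 there). With libraries scaled to equal upper quartiles, Samhd1 (−0.95), Ifit2 (−0.87) and Isg20 (−0.74) came out short of 2-fold.

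Ifitm3 and Bst2, the most abundant effectors, did not share this difference, while Isg20 and Samhd1, next in bulk cells at 48.3 and 40.0 FPKM, did. Ifitm3, a membrane protein that blocks viral entry, was at 1037 FPKM in mammospheres and 897 FPKM in bulk cells (0.21). Bst2, tetherin, which holds budding virions on the cell, was at 166 and 162 FPKM (0.03). The 2′-5′ oligoadenylate synthetase Oas1a was at 16.7 FPKM in mammospheres and 13.2 FPKM in bulk cells (0.31), and its relatives Oasl1 at 25.1 and 20.8 FPKM (0.26) and Oasl2 at 10.1 and 17.0 FPKM (−0.70). Rsad2, viperin, was at 16.0 and 25.7 FPKM (−0.65) and Ifi44 at 19.7 and 14.1 FPKM (0.45). Rtp4 (0.29), Xaf1 (−0.11), Cmpk2 (−0.24), Ifi35 (−0.50) and Mx2 (−0.56) completed the effectors, at 3.28 to 15.7 FPKM in mammospheres and 5.30 to 22.6 FPKM in bulk cells. How reads were divided among near-identical genes is not stated in the labels, so values of the Oas, Mx, Ifitm and Gbp families are uncertain to that extent.

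In the ISG15, ubiquitin and PARP group none of 9 genes reached 2-fold, and the median was −0.71. Of the 9, 7 were lower in mammospheres (77.8%, against 65.2% of all measured rows). Isg15, the ubiquitin-like modifier, was at 44.3 FPKM in mammospheres and 81.0 FPKM in bulk cells (−0.86). Usp18, the protease that removes ISG15 and damps the type I receptor, went the other way, at 18.0024 FPKM in mammospheres and 11.5 FPKM in bulk cells (0.61), the highest fold change of the 44. Herc6 (−0.82), the ISG15 ligase of the mouse, and Parp14 (−0.78), Parp12 (−0.73), Parp9 (−0.71), Dtx3l (−0.44) and Trim21 (−0.28) were lower, and Trim25 (0.18), a ligase acting on RIG-I, was at 29.2 and 25.7 FPKM in mammospheres and bulk cells.

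The GTPases had the lowest median of the groups with several genes, −1.69, against −0.24 over all measured rows. Of the 4, 3 were 2-fold lower in mammospheres, against 17.2% of all rows. Besides Gbp2, Gbp3 was at 6.52 FPKM in mammospheres and 23.96 FPKM in bulk cells (−1.73), and Igtp, also called Irgm3, at 4.45 and 16.1 FPKM (−1.65). Irgm1, an immunity-related GTPase that regulates the others, was at 20.1 and 28.1 FPKM (−0.46). With fold changes centred on the median row, or with equal upper quartiles, 3 of the 4 were still 2-fold lower.

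Genes with neighbouring loci were also compared. Position was not used to choose the list, but the list took in gene families whose members lie side by side. Within 200 kb of each other on mm9 lay Ifit2, Ifit3 and Ifit1 (chr19:34625183-34724499), all lower in mammospheres. Gbp3 and Gbp2 (chr3:142223015-142300972) were both lower, at −1.73 and −3.57 on the log2 scale. Mx1 and Mx2 (chr16:97668641-97782508) differed from each other, at −1.79 and −0.56. Parp14, Parp9 and Dtx3l (chr16:35832963-35972691) lay between −0.78 and −0.44, and Parp9 and Dtx3l were listed at the same locus. Rsad2 and Cmpk2 (chr12:27127607-27164702) were at −0.65 and −0.24, and at −0.03 and 0.34 in the knockdown comparison. The pair Oasl2 and Oasl1, 11.0 kb apart on chr5, had opposite signs (−0.70 and 0.26), as they did in the knockdown comparison (0.53 and −0.26).

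Upstream of these genes, 5 of 8 measured interferon receptor and Jak kinase genes were 2-fold lower in mammospheres, against 17.2% of all rows, and 0 were higher (median −1.15). The kinase gene Tyk2, at 9.31 FPKM in mammospheres and 8.06 FPKM in bulk cells (0.19), and the type I receptor chain gene Ifnar1, at 9.01 and 12.2 FPKM (−0.40), were among the other 3. Ifngr1, a chain of the interferon gamma receptor, was at 6.49 FPKM in mammospheres and 22.1 FPKM in bulk cells (−1.62), Ifngr2, the other chain, at 6.71 and 16.9 FPKM (−1.22), Jak1 at 42.5 and 129 FPKM (−1.57) and Jak2 at 10.7 and 24.96 FPKM (−1.15). Of 10 interferon genes, 2 reached 1 FPKM, both in bulk cells only. Ifng was listed at 0 in mammospheres and was at 2.71 FPKM in bulk cells, and Ifnb1 was at 0.0421 and 1.03 FPKM.

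A second list of 57 interferon-inducible genes outside the 44 gave 53 with a row and 52 measured. In mammospheres 23 of these were 2-fold lower (44.2%, against 17.2% of all rows) and 2 higher, a share near the 3.55% of all rows (median −0.84, against −0.24). The immunoproteasome subunits Psmb9 (2.32 FPKM in mammospheres, 50.0 FPKM in bulk cells, log2 fold change −3.94) and Psmb8 (14.0 and 105 FPKM, −2.83) were among the lowest, with the GTPases Ifi47 (0.582 and 15.4 FPKM, in a row shared with Olfr56) and Tgtp2 (0.141 and 9.17 FPKM). The 2 higher genes were Oas3, an oligoadenylate synthetase, at 19.5 and 5.78 FPKM (1.60), and the helicase gene Mov10 at 14.1 and 5.72 FPKM (1.17); they were named for being the exceptions.

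Markers of other cells moved with this comparison, as did most of the epithelial markers given above. Of 17 leukocyte markers, 16 were measured and all 16 were 2-fold lower in mammospheres, against 17.2% of all measured rows. Their summed level was 1.54 FPKM in mammospheres, where 7 were listed at 0 and all 17 were under 1 FPKM, and 422 FPKM in bulk cells. Cd74, which chaperones MHC class II (row shared with Mir5107), was at 0.0353 FPKM in mammospheres and 164 FPKM in bulk cells, and the lysozyme gene Lyz2 at 0.0737 and 122 FPKM. Tyrobp was listed at 0 in mammospheres and was at 23.7 FPKM in bulk cells. Ptprc, which encodes CD45, was at 0.0184 FPKM in mammospheres and 6.64 FPKM in bulk cells, while Gzmb, a granule protease of NK and cytotoxic T cells from a separate list of 6 markers, was listed at 0 in mammospheres and was at 10.8 FPKM in bulk cells. That list summed to 16.2 FPKM in mammospheres, nearly all of it Tcf4, and 33.6 FPKM in bulk cells. The 11 fibroblast markers summed to 1.09 FPKM in mammospheres and 413 FPKM in bulk cells, and the 5 endothelial markers to 0.240 and 6.17 FPKM. Leukocytes and fibroblasts themselves express many of the 44 genes, and the part of these cells in the lower values was not tested. In bulk RNA, fewer cells of a type and less RNA per cell cannot be told apart.

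Knockdown of Cbx8 was accompanied by slightly higher levels of most interferon-stimulated genes. Of 43 measured members, 33 had a positive log2 fold change (76.7%), against 48.8% of all 10685 measured rows, and 10 a negative one (23.3%), against 51.2% of rows, and the member median was 0.35 against −0.006 over all rows. Only Usp18 was 2-fold or more higher, against 0.299% of all rows, and 0 members were 2-fold lower, against 0.449%. At 1.5-fold, a limit tried as an alternative, 10 members were higher (23.3%), against 2.1% of all rows, and 0 lower, against 2.18%. Those 10 were 4.46% of the 224 rows that were 1.5-fold higher. Mx1, at 0.340 FPKM in the knockdown library and 0.346 FPKM in the control library, was not measured.

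**Figure D3:**
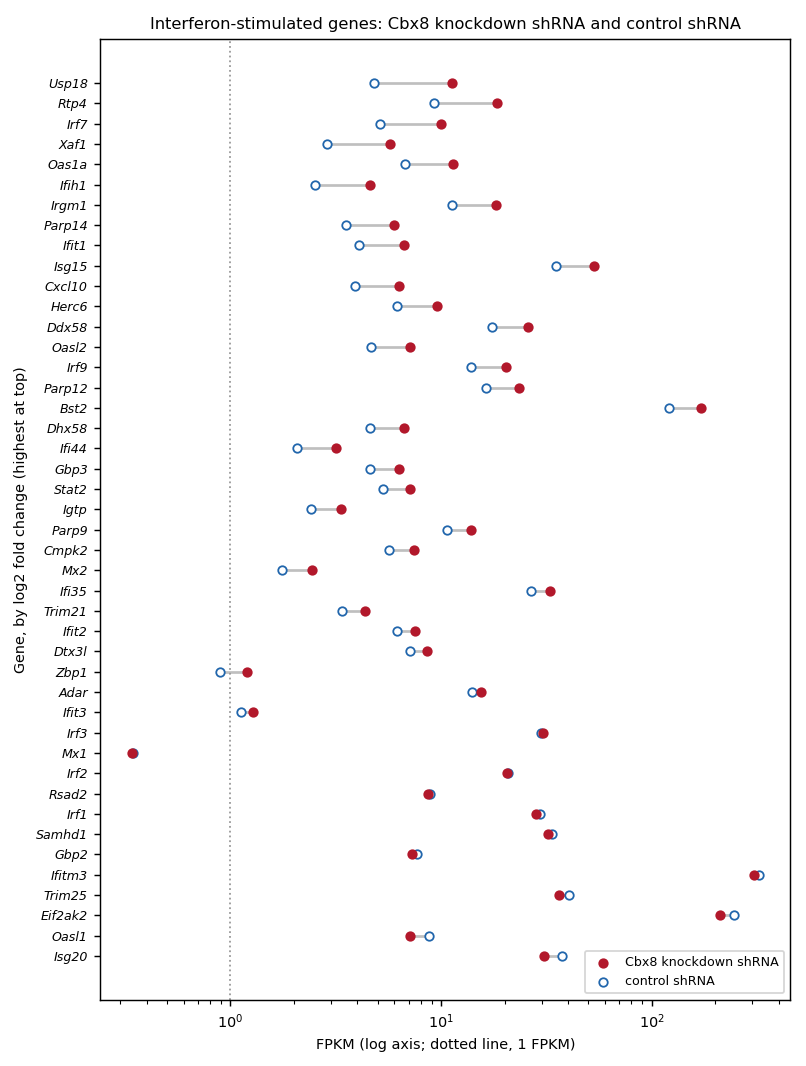
FPKM (log axis) of the 44 genes in the Cbx8 knockdown library (filled red) and the control shRNA library (open blue), ordered by log2 fold change with the highest at the top. Usp18 heads the list at 11.2 and 4.80 FPKM, and Isg20, at the foot, is at 30.6 FPKM in the knockdown and 37.4 FPKM in the control library.

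Usp18 (chr6:121195923-121220935) was at 11.2 FPKM in the knockdown library and 4.80 FPKM in the control library, a log2 fold change of 1.07. Rtp4, a chaperone of receptor transport, was at 18.3 FPKM in the knockdown library and 9.24 FPKM in the control library (0.92). Irf7 was at 10.0 FPKM in the knockdown library and 5.11 FPKM in the control library (0.85). Xaf1, a pro-apoptotic zinc finger protein, followed at 5.69 and 2.89 FPKM (0.78), Oas1a at 11.4 and 6.71 FPKM (0.69), Ifih1 at 4.61 and 2.53 FPKM (0.67) and Irgm1 at 18.3 and 11.2 FPKM (0.66). Parp14 (0.62), Ifit1 (0.60) and Isg15 (0.59) were the other 3 past 1.5-fold, and Isg15 was the most abundant of the 10 at 53.2 FPKM in the knockdown library and 34.9 FPKM in the control library. Members of every role except the chemokine were thus among the 10, while Cxcl10 itself was at 6.30 and 3.88 FPKM (0.58), just short of the limit.

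No member passed the authors' own correction. In the authors' deposited table q was under 0.05 for 0.128% of rows in the higher and 0.0769% in the lower direction, and for 0 members. In the authors' deposited table, q ran from 0.461 for Usp18 and 0.708 for Rtp4 to 0.999. The unadjusted p there was under 0.05 for 10 of 44 members, all higher in the knockdown library, against 1.84% of all rows in that direction, and for 0 members in the other, against 1.81%. The p-value of Usp18 was 0.00335 in the authors' deposited table. These values compare 1 library with 1 library.

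By role, the ISG15, ubiquitin and PARP group had the highest median of the groups with several genes, 0.50, with 8 of 9 positive; Trim25, at 36.4 FPKM in the knockdown library and 40.6 FPKM in the control library, was the exception. Of the 4 GTPases 3 were positive (median 0.37), and of 6 sensors 5 were (median 0.33), including Ddx58 at 25.8 and 17.5 FPKM (0.54). Of 17 measured effectors 12 were positive (median 0.32). Over all measured rows 48.8% were positive, and groups of 4 to 9 genes are small beside that share. Bst2 was at 171 FPKM in the knockdown library and 121 FPKM in the control library (0.50). Ifitm3, at 306 and 323 FPKM (−0.08), and Eif2ak2, at 211 and 246 FPKM (−0.22), the other 2 members over 100 FPKM, were not higher. The signalling factors had the lowest median, 0.19: beside Irf7, Irf9 was at 20.3 and 13.9 FPKM (0.51) and Stat2 at 7.08 and 5.32 FPKM (0.35), whereas Irf1 (28.3 and 29.4 FPKM), Irf2 (20.5 and 20.7 FPKM) and Irf3 (30.4 and 29.9 FPKM) differed by at most 0.05 on the log2 scale. With equal upper quartiles the signs of 32 of 43 members were positive, against 43.8% of all rows, and every group median stayed positive.

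The lowest values in the knockdown comparison were small. Isg20 was at −0.28, Oasl1 at −0.26, Eif2ak2 at −0.22 and Trim25 at −0.15, and Irf1, Gbp2 and Samhd1, which were among the 12 lower in mammospheres, lay between −0.07 and −0.05. The 13 members with an ISRE core had a median of 0.38 with 10 positive, and the 23 without had a median of 0.28 with 16 positive. The 9 members with a GAS core had a median of −0.009 with 4 positive, and the 27 without had a median of 0.38 with 22 positive. Over all measured rows 48.8% were positive and the median was −0.006, so the GAS class lay near the values of all rows.

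**Figure D4:**
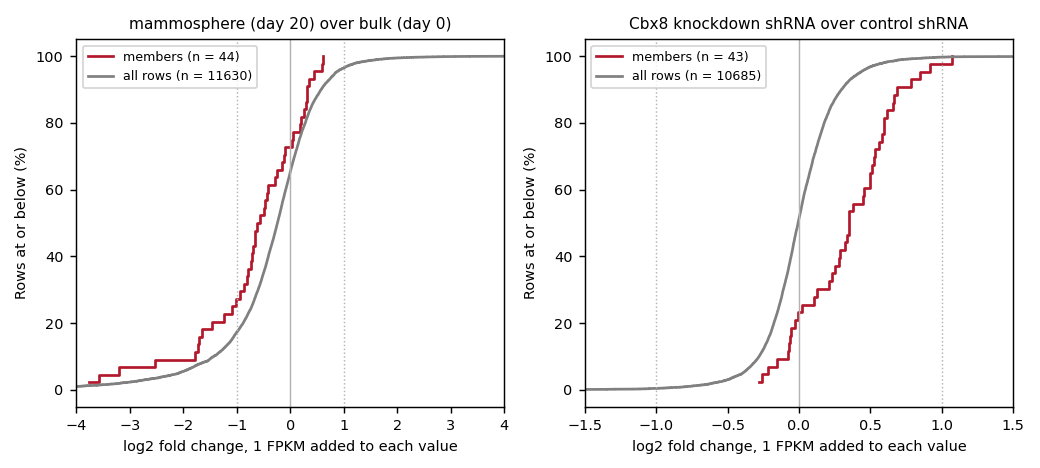
Cumulative share of rows (percent) by log2 fold change for members (red) and all measured rows (grey), for mammospheres over bulk cells (left) and Cbx8 knockdown over control shRNA (right). On the right the member curve lies right of the grey one along most of its length (medians 0.35 and −0.006), and on the left it lies left of it (medians −0.59 and −0.24).

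Of the 8 measured receptor and kinase genes, 6 were positive in the knockdown comparison, against 48.8% of all rows (median 0.24), and none reached 1.5-fold. Jak1 (−0.06) and Jak2 (−0.04) were negative, and the type I receptor chain Ifnar1 was at 13.2 FPKM in the knockdown library and 8.69 FPKM in the control library (0.55). No interferon gene had a row in that table. Of the 57 other interferon-inducible genes, 34 were measured, with a median of 0.18. Of these, 23 were positive (67.6%, against 48.8% of all rows) and 4 were 1.5-fold higher (11.8%, against 2.1%). They were Gbp9 (2.28 and 1.07 FPKM), Tor3a (18.7 and 11.4 FPKM), Irgm2 (4.58 and 2.62 FPKM) and Sp100 (2.04 and 1.02 FPKM), in knockdown and control cells. Only 2 of 17 leukocyte markers (Itgam and Coro1a) had a row here, so the level of the other 15 is not known from this table; the 2 had a sum of 0.588 FPKM in the knockdown library and 0.759 FPKM in the control library. The 4 fibroblast markers with a row summed to 3.03 FPKM in knockdown and 6.565 FPKM in control cells. The 9 epithelial markers with a row summed to 444 and 440.4 FPKM in the same order. Epcam (0.0427 and 0.338 FPKM) and Cdh1 (0.206 and 0.283 FPKM) were under 1 FPKM in both libraries. Of the 9, 6 were measured, with 3 positive, against 48.8% of all rows, and 3 negative (median 0.05). Among these the keratin gene Krt14 stood at 10.5 FPKM in knockdown and 1.09 FPKM in control cells (2.46; q = 0.0325 in the authors' deposited table). The part of these markers' cells in the result was not tested.

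The 2 comparisons share no library, and each fold change was taken within its own table. Of the 43 members measured in both, 25 were lower in mammospheres and higher in knockdown cells, and 4 the reverse. Another 8 were higher in both and 6 lower in both. Counted alone, 32 of 44 members were lower in mammospheres and 33 of 43 were higher in knockdown cells. The joint counts were not made over all rows, so the 25 do not show that the 2 directions were linked. Genes are not independent replicates; across the 43, Pearson's r between both sets of fold changes was 0.16 and Spearman's rho 0.11. The 11 members that were 2-fold lower in mammospheres and measured in the knockdown table had a median there of 0.21, with 7 positive. The other 32 had a median of 0.45, with 26 positive. Usp18, Rtp4 and Oas1a were higher in both comparisons, while Cxcl10 stood far apart, lowest of all members in mammospheres and 0.58 in knockdown cells.

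**Figure D5:**
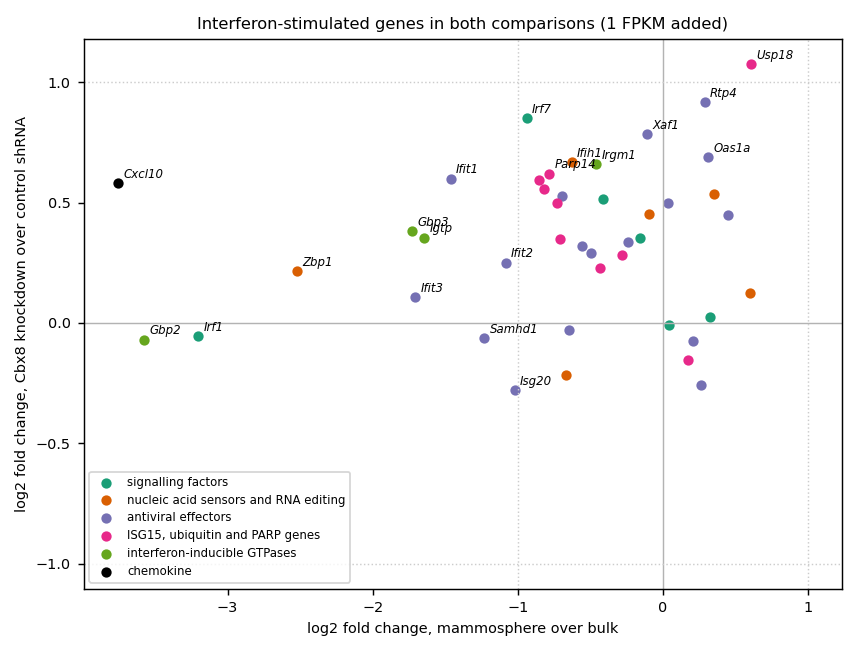
Log2 fold change of Cbx8 knockdown over control shRNA against that of mammosphere over bulk for the 43 members measured in both tables, coloured by role. Most points lie above the horizontal zero line, and the genes farthest left, Cxcl10 (−3.76), Gbp2 (−3.57) and Irf1 (−3.20), lie at 0.58, −0.07 and −0.05 on the vertical axis.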

How the data were processed

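Reads were processed against mm9 with TopHat 1.4.0, Cufflinks 1.3.0 and Cuffdiff (listed as 0.0.7), beside FastQC 0.10.0, per the submitters' processing notes. The authors deposited FPKM per gene with Cuffdiff p-values and q-values, in 1 table for each pair of libraries. Depth is unknown: no counts were given, and the lowest FPKM values were not multiples of a single read. FPKM values shift for all genes when a few abundant genes change, so scaling was varied.

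Fold changes were log2 ratios with 1 FPKM added, over rows at 1 FPKM or more in either library, whatever the authors' status; 18 of 44 members were tested by the authors in the mammosphere and bulk table and 44 in the other. Members and lists were chosen with earlier results of these data known. The rule was to describe in full the members 2-fold different in either comparison or among the 3 most abundant. FPKM values of many other members were also given, outside that rule. From the other lists up to 4 genes with the largest change were named. Exceptions, named after their values were seen, were the defining markers Ptprc, Epcam and Cdh1, and Tcf4 as the bulk of its list's sum. Genes that went against their list (Oas3, Mov10, Tyk2, Ifnar1, Pias1, Ptpn6, Ptpn11, Krt19) were also named after their values were seen. Promoters were shown for the 8 most changed members that held a motif core. The counting step was tested on simulated data. Alternatives were pseudocounts, FPKM minimums, scalings, row choices, a 1.5-fold limit and the authors' calls. Computation used Python 3.11.15, numpy 2.4.6 and pandas 2.3.3.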

Additional observations from a re-analysis of the deposited data

How the results depend on the processing

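No paired analysis was possible because each group was 1 library. In the mammosphere comparison the count of members 2-fold lower (12, against 17.2% of all rows) lay between 8 and 12 under other pseudocounts, scalings and a minimum of 5 FPKM. The share of all rows moved as well. The count was 12 with 0.1 FPKM added, against 20.7% of all rows, and 8 with 5 FPKM added, against 8.26%. With equal upper quartiles it was 9, against 13.6%. Row choice and dropping the minimum could not change the count of members, because each of the 44 had 1 row and was measured. The count was 6 among the 18 members the authors tested, 22 at 1.5-fold and 5 by the authors' q. Of the measured rows that the authors tested, 16.2% were 2-fold lower, and 30.7% of all measured rows were lower at 1.5-fold. The count higher (0) was 2 at 1.5-fold, against 9.86% of all rows. The member median (−0.59) was −0.35 with equal upper quartiles, where the median of all rows was 0.03, and −0.41 after centring. The median shift of all rows removed by centring was −0.19. In the knockdown comparison the count higher (1) was 0 with 5 FPKM added, 10 at 1.5-fold and 0 by the authors' q, and the member median (0.35) lay between 0.23 and 0.44. Over all rows of the knockdown comparison 0.131% were higher with 5 FPKM added and 2.1% at 1.5-fold. With 5 FPKM added, Ifit2, Ifit3, Isg20 and Mx1 came out short of 2-fold in the mammosphere comparison. No called value changed sign under these alternatives. Depth and replicate spread are unknown, so no error can be given for any single gene, and genes under 5 FPKM are the least certain.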

Other observations

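Of 10 measured adaptors and kinases that lead from nucleic acid sensing to interferon production, 1 was 2-fold higher and 1 lower in mammospheres (median −0.20). These are near the values over all rows, of which 3.55% were higher and 17.2% lower (median −0.24). Ikbke, a kinase that phosphorylates Irf3 and Irf7, was at 24.4 FPKM in mammospheres and 6.30 FPKM in bulk cells (log2 fold change 1.80; q = 0.0102 in the authors' deposited table). Mavs, the mitochondrial adaptor of RIG-I and MDA5, was at 41.3 FPKM in mammospheres and 20.4 FPKM in bulk cells (0.98). Irf5 was at 1.304 FPKM in mammospheres and 8.04 FPKM in bulk cells (−1.97). In the knockdown comparison 5 of 10 were positive (median 0.005), near the 48.8% of all rows (median −0.006). Tlr3, an endosomal RNA receptor, was at 4.18 FPKM in knockdown and 2.46 FPKM in control cells (0.58) and Irf8 at 9.59 and 16.8 FPKM (−0.75).

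Of 7 negative regulators of interferon signalling, 4 were 2-fold or more lower in mammospheres, against 17.2% of all rows (median −1.08). Socs3 was at 5.30 FPKM in mammospheres and 47.4 FPKM in bulk cells (−2.94; q = 8.07e-07 in the authors' deposited table) and Socs1 at 4.00 and 19.2 FPKM (−2.02). The other 3 were Ptpn11 (−0.47), Ptpn6 (−0.02) and Pias1 (0.24). In the knockdown comparison 2 of 7 were positive (median −0.09), against 48.8% of all rows (median −0.006). The phosphatase gene Ptpn6 was at 11.1 FPKM in knockdown and 17.8 FPKM in control cells (−0.64).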
